A study of Rattus norvegicus with 18 samples.

Results

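The minor arms of 43 microRNA (miRNA) precursors were followed in rat liver. Of the 401 miRNA rows in the deposited table, 125 precursors had a row for the -5p arm and a row for the -3p arm. The minor arm was the arm with the lower sum over the 18 libraries, and it was kept where that sum was 20 counts or more. The pairs of 12 named precursors were set aside by the rule, 10 of which also reached 20 counts. A further 70 pairs fell below the minimum. The members were thus chosen by their summed counts over all groups, and the lower count of the minor arm is not a finding. Each group had 6 liver libraries of rats aged 8 weeks: lean rats with no agent named, obese rats given vehicle, and obese rats given colesevelam. The labels give all 3 groups, the lean rats included, the strain ZDF-Leprfa/Crl, so the strain label does not tell the lean genotype from the obese one. Zucker diabetic fatty (ZDF) rats that become obese lack a working leptin receptor, and colesevelam, taken by mouth, holds bile acids back from reabsorption. The labels do not say that each library came from its own animal. In each group some libraries share a label number, such as colesevelam 2 and colesevelam 3, and whether these are the same animal is not stated. The main tests and the SDs count all 6 libraries of a group separately, so the p-values measure the spread between libraries, which may be technical.

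A miRNA precursor is a hairpin that Drosha and Dicer trim to a short duplex of its -5p and -3p arms. An Argonaute protein keeps one strand of the duplex as the guide, and the other strand is usually lost. The strand with the less tightly paired 5′ end, and a 5′ base of U or A, is favoured as guide, and bases 2 to 8 of the guide, the seed, select its target mRNAs. Both arms are counted in the same library, so a scaling factor between libraries cancels in their ratio, while depth sets how precisely the ratio is known.

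The mature sequences below are those of the arms whose ratio passed a test, with both arms of each precursor, followed by the 4 minor arms with the most counts and the minor arms that share a seed. They are written 5′ to 3′ as in the deposited table, with U for T, and capitals mark the seed.
rno-miR-99a-3p (minor): cAAGCUCGuuucuaugggucug
rno-miR-99a-5p (major): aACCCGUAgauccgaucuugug
rno-let-7b-3p (minor): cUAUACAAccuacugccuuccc
rno-let-7b-5p (major): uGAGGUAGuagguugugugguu
rno-miR-340-3p (minor): uCCGUCUCaguuacuuuauagcc
rno-miR-340-5p (major): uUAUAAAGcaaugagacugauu
rno-miR-151-5p (minor): uCGAGGAGcucacagucuagu
rno-miR-151-3p (major): cUAGACUGaggcuccuugagg
rno-miR-126a-3p (minor): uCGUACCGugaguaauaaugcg
rno-miR-126a-5p (major): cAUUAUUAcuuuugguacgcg
rno-miR-30a-3p (minor): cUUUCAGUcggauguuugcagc
rno-miR-30e-3p (minor): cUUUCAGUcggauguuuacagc
rno-miR-30d-3p (minor): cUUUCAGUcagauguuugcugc
rno-miR-98-3p (minor): cUAUACAAcuuacuacuuucc

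The seed UUUCAGU was shared by the minor arms of miR-30a, miR-30e and miR-30d, and the seed UAUACAA by those of let-7b and miR-98. No other seed was shared among the 43 minor arms. RefSeq (GRCr8) held 39 of the 43 minor and 38 of the 43 major arms, and every matched sequence was identical to the deposited one. Of the members, 27 had their minor arm on the 3p side and 16 on the 5p side. The first base was U in 11 and C in 17 of the minor arms, against U in 24 and C in 7 of the major arms. U or A stood first in 20 minor and 35 major arms. The median GC content was 50% for minor and 45.5% for major arms, and the minor arm had the higher GC content in 29 pairs, the lower in 10 and an equal one in 4. In the 35 members whose RefSeq hairpin could be folded, the first 4 bases of the arm held more hydrogen bonds on the minor arm in 23, on the major arm in 9, and equally many in 3. The medians were 9 bonds for the minor and 7 for the major arm. The same direction held over the 110 foldable pairs of the table, members included, with more bonds on the minor arm in 68 and on the major arm in 27. Among the 70 pairs below the minimum these numbers were 41 and 14, so the bond difference is not particular to the 43. In those 70 pairs U or A stood first in 37 minor and 48 major arms. Their minor arm had the higher GC content in 35 and the lower in 25. It lay on the 3p side in 35 and on the 5p side in 35, without the 3p excess of the members.

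Library totals ran from 110357 to 881457 miRNA counts in the lean group, from 37912 to 147318 in the vehicle group and from 32942 to 122885 in the colesevelam group. The lean libraries held 71.2% of all counts and 73.3% of the members' minor-arm counts. Outside the lean group, 25 members still had 20 counts or more and 18 did not, so the minimum was passed by those 18 through the lean libraries. Hepatocyte markers (miR-122, miR-192, miR-194, miR-148a and miR-802) summed to between 217878 and 499395 CPM (counts scaled to a library of fixed size) in every library. The 6 markers of bile duct and other epithelium (miR-200a, miR-200b, miR-200c, miR-141, miR-429 and miR-375) summed to 732 to 2199 CPM (median 1827) in the lean, 498 to 1173 (median 754) in the vehicle and 608 to 1045 (median 682) in the colesevelam libraries. Their part in the differences from lean reported here was not tested. The muscle marker miR-133a reached at most 26.8 CPM in any library.

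The minor arms were a small and uneven fraction of the liver's miRNA counts. The 43 minor arms held 20027 counts over all libraries, 0.723% of the table, and 4 of them, miR-151-5p, miR-126a-3p, miR-30a-3p and miR-30e-3p, held 73.1% of that. The median member had 105 minor-arm counts, 22 members had 100 or more, and 14 were counted in every library. The ratio, in minor-arm counts per 100 major-arm counts, ran from 0.0165 for miR-192 to 96.5 for miR-106b with a median of 9.63. It was 50 or more in 5 members, from 10 to 50 in 16, from 1 to 10 in 12, and below 1 in 10. At the edge of the minimum, the last members inside were miR-338-5p with 24 counts and miR-101a-5p and miR-365-5p with 22 each. The first outside were miR-10a-3p, miR-221-5p and miR-374-3p with 19 each.

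**Figure D1:**
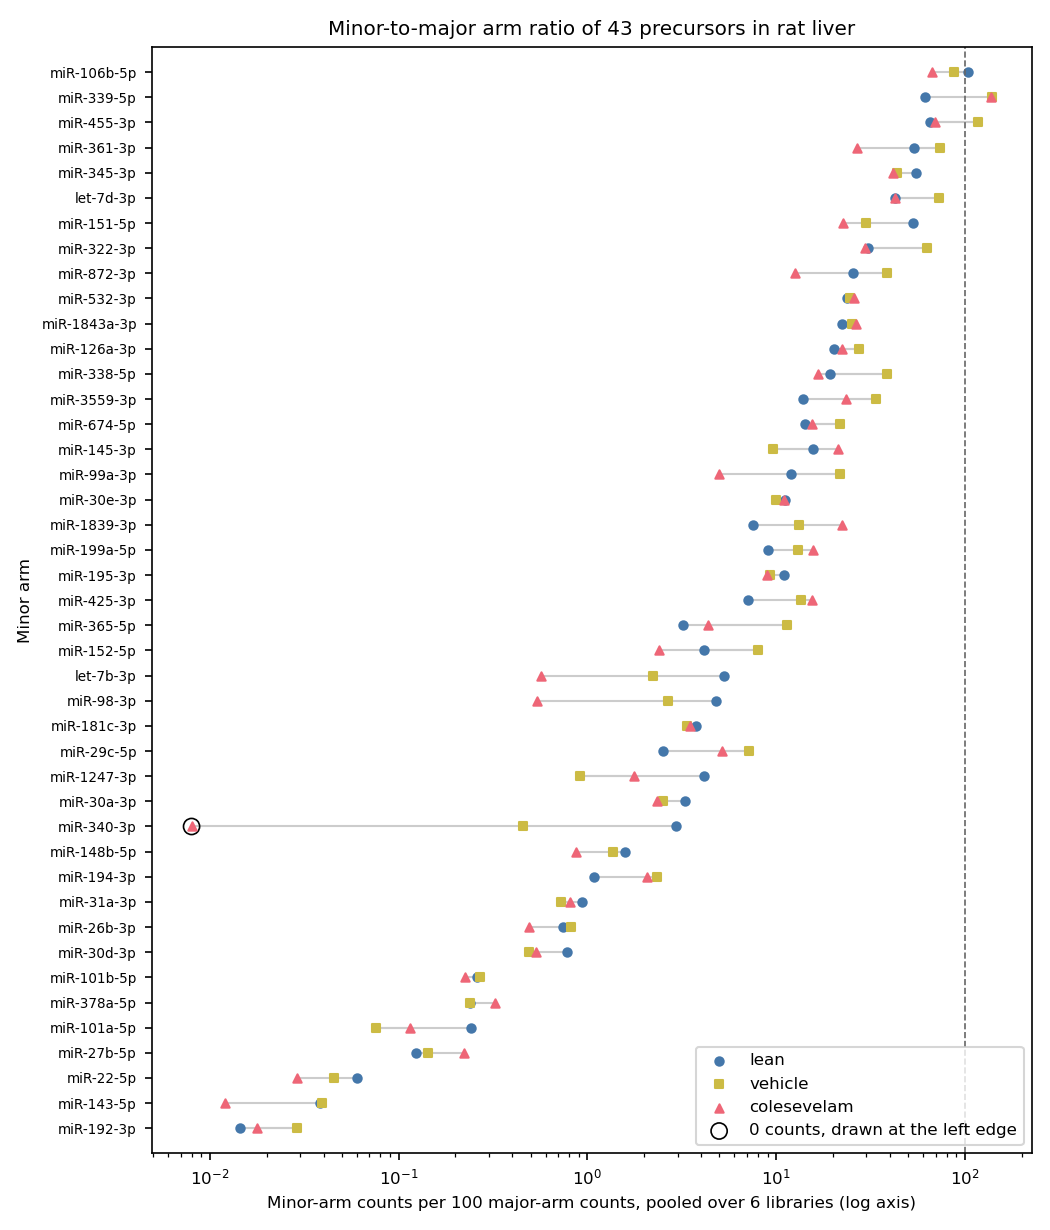
Minor-arm counts per 100 major-arm counts (log axis) for each of the 43 minor arms, pooled over the 6 libraries of a group; points are the lean, vehicle and colesevelam groups, grey lines join them, and the dashed line marks equal counts. The members span 0.0165 to 96.5 over all libraries, and the 3 groups lie close together for most of them; the ringed point is miR-340-3p, which had 0 counts under colesevelam.

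The most one-sided precursors included those that make the most abundant miRNAs of the liver. miR-192-5p, a miRNA enriched in liver and gut, had 751085 counts and its minor arm miR-192-3p 124, and the ratio ran from 0.00993 to 0.0334 per 100 in the lean, from 0 to 0.0886 in the vehicle and from 0 to 0.0351 in the colesevelam libraries. The arms of miR-194, which lies beside miR-192 on chromosome 1, were less one-sided at 1.39 per 100. miR-194-5p is listed at 2 locations and miR-194-3p at 1, so the major-arm count may come from more than 1 precursor. miR-22-3p, an abundant liver miRNA, had 257352 counts against 138 for miR-22-5p, 0.0536 per 100. miR-143, a miRNA of stellate and smooth muscle cells, had a ratio of 0.0344, miR-27b, a regulator of lipid metabolism, one of 0.136, and miR-101a one of 0.21 per 100. The groups overlapped in all of these.

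miR-378a lies in an intron of Ppargc1b, a coactivator of mitochondrial genes, and its major arm was one of the few whose level differed. miR-378a-3p was at 42831 ± 3680 CPM in the lean, 74337 ± 21548 in the vehicle and 71471 ± 19479 in the colesevelam libraries (SD, n = 6 each). It rose in vehicle against lean by 0.80 ± 0.21 on the log2 scale (edgeR quasi-likelihood, Benjamini-Hochberg adjusted p = 0.020), and in colesevelam against lean by 0.74 ± 0.21 (adjusted p = 0.0163). The minor arm miR-378a-5p was at 121 ± 57.2, 175 ± 79.5 and 227 ± 150 CPM in the same order, and neither change passed the test (adjusted p = 0.547 and 0.108). The ratio ran from 0.112 to 0.528 per 100 in the lean, from 0.117 to 0.368 in the vehicle and from 0.12 to 0.612 in the colesevelam libraries, 3 overlapping ranges.

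At the other end, 5 precursors had a ratio of 50 or more. The summed ratios were 96.5 per 100 for miR-106b, a member of the miR-17 family that acts on cell cycle genes, 77.6 for miR-339, 71.9 for miR-455, 52.3 for miR-361 and 51.2 for miR-345. In 12 of the 43 members the minor arm exceeded the major arm in at least 1 library. miR-339-5p did so in 10 of 18 libraries, miR-455-3p in 8, miR-106b-5p in 5, and miR-322-3p and miR-361-3p in 3 each. Averaged with equal weight for each library, miR-339-5p held 54.1% of its pair, so which arm of miR-339 is the minor one depended on how libraries were weighted. Without lean 2, the deepest library, the summed share was 50.5% for miR-339-5p and 51.1% for miR-455-3p. These counts were small: in the vehicle group miR-339-5p had 75 counts against 54 and in the colesevelam group 41 against 30, and the lean group, at 61.3 per 100, set the summed order.

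The miR-30 family, whose major arms target genes of fibrosis and autophagy, contributed 3 minor arms with a common seed but very different ratios. The ratio of miR-30e was 11.1 per 100 pooled over the lean, 9.997 over the vehicle and 11.0 over the colesevelam group, that of miR-30a 3.28, 2.52 and 2.34, and that of miR-30d 0.783, 0.491 and 0.533. miR-30a-3p was at 1041 ± 182, 892 ± 167 and 859 ± 330 CPM (SD, n = 6 each), and miR-30e-3p at 857 ± 239, 756 ± 79.4 and 786 ± 143.5. The ranges of both minor arms overlapped between all groups. The major arm miR-30d-5p was lower in colesevelam than in vehicle by 0.60 ± 0.18 on the log2 scale (edgeR, adjusted p = 0.0317), while the ratio of miR-30d differed by 0.22 ± 0.54 (adjusted p = 0.992).

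miR-151-5p had the most counts of any minor arm, 5301, and its ratio scattered more in the lean group than in the others. The ratio ran from 18.7 to 117 per 100 in the lean libraries with a median of 34.6, from 23.2 to 35.4 (median 27.6) in the vehicle and from 14.4 to 40.8 (median 24.6) in the colesevelam libraries. Lean 4 at 117 and lean 2 at 90.0 stood above all other libraries. In these the minor arm was at 1790 and 2700 CPM, against 1440 to 2055 in the other lean libraries, and the major arm miR-151-3p was at 1527 and 3000 CPM against 3831 to 9360. Lean 4 and lean 2 were also the deepest libraries. The part of depth in this was not tested.

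miR-126a comes from an intron of Egfl7 and marks endothelial cells, in which the 3p arm is the better known guide. Here miR-126a-5p had more counts, 19322 against 4125 for miR-126a-3p. The ratio ran from 18.6 to 29.96 per 100 (median 22.4) in the lean, from 19.7 to 52.5 (median 32.7) in the vehicle and from 12.8 to 32.8 (median 29.0) in the colesevelam libraries. The ranges overlapped, and the change in vehicle against lean was 0.52 ± 0.34 on the log2 scale (edgeR, adjusted p = 0.480). In bulk liver, fewer cells of a type and less RNA per cell cannot be told apart. The stromal miR-199a gave ratios from 7.74 to 18.1 per 100 in the lean, from 1.96 to 26.3 in the vehicle and from 8.06 to 33.3 in the colesevelam libraries, also overlapping.

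**Figure D2:**
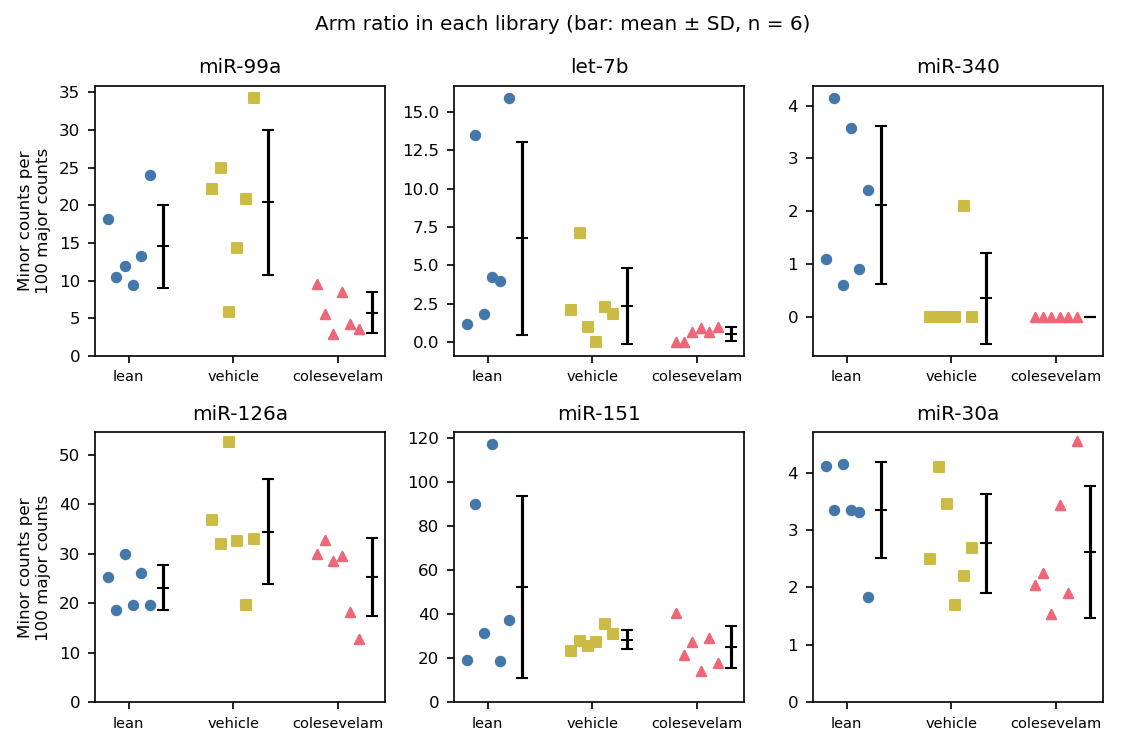
Minor-arm counts per 100 major-arm counts in each library for 6 precursors; points are libraries, and bars are the mean ± SD of a group's 6 libraries. Colesevelam values of miR-99a lie between 2.86 and 9.52 and those of let-7b between 0 and 1.02, while miR-126a and miR-30a overlap in all groups and miR-151 has 2 high lean libraries.

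Obesity was compared first, as vehicle against lean. No arm ratio of the 43 members passed an adjusted p of 0.05 in the edgeR quasi-likelihood test, which was fitted over the 53 pairs with 20 counts or more and in which 3.77% of pairs passed, 1.89% as higher and 1.89% as lower. At an unadjusted p below 0.05 there were 4 of 43 members, 3 higher and 1 lower, and 7 of all 53 pairs. No member had groups that did not overlap, against 3.77% of the 53 pairs. The median change was 0.06 on the log2 scale over the members and 0.06 over all 53 pairs.

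The members with the smallest p in this comparison were miR-340, miR-322 and miR-365. miR-340 had 38 minor-arm counts in the lean and 2 in the vehicle group, both in vehicle 5, which is 0.452% of both arms in the pooled vehicle libraries (exact 95% interval 0.0548% to 1.62%, counting error only). Its change was -2.25 ± 0.89 (edgeR, adjusted p = 0.208), and it passed without vehicle 5 (edgeR, adjusted p = 0.0391). That fit left the vehicle group with no minor-arm count. miR-340 also reached the minimum of 20 only through the lean libraries, where it was high, so the pass is not independent of how members were chosen. miR-322 is the rat counterpart of human miR-424, a regulator of the cell cycle, and the files list it at 2 locations. Its ratio ran from 8.47 to 100 per 100 (median 32.6) in the lean and from 27.8 to 175 (median 107) in the vehicle libraries, a change of 1.22 ± 0.54 (edgeR, adjusted p = 0.254). miR-365, at 22 minor-arm counts in all, gave 1.75 ± 0.77 (edgeR, adjusted p = 0.254).

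Colesevelam was then compared with vehicle. 1 of the 43 members, miR-99a, had a lower ratio and none a higher one, where 3.77% of the 53 pairs passed, all of them lower. At an unadjusted p below 0.05 there were 5 of 43 members, all lower, and 8 of all 53 pairs. The 5 were miR-99a, miR-361, miR-872, let-7b and miR-322. The median change was -0.29 over the members and -0.33 over all pairs, and 27 of the 43 members lay below 0. No member had groups that did not overlap.

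miR-99a, a miRNA of the miR-99/100 family that acts on the mTOR pathway, has its 5p arm at 19707435 to 19707456 and its 3p arm at 19707472 to 19707493 on the plus strand of chromosome 11 in the table's own coordinates. The ratio of miR-99a-3p to miR-99a-5p ran from 9.39 to 24.0 per 100 (median 12.6) in the lean, from 5.88 to 34.3 (median 21.5) in the vehicle and from 2.86 to 9.52 (median 4.93) in the colesevelam libraries. All colesevelam libraries were low, and vehicle 3, with 1 minor-arm count, was the only vehicle library among them. Pooled counts were 130 against 1081 in the lean, 40 against 183 in the vehicle and 16 against 323 in the colesevelam group. At the pooled lean ratio the colesevelam group would have had 38.8 minor-arm counts. The ratio fell 4.03-fold in colesevelam against vehicle, by 2.01 ± 0.51 on the log2 scale (edgeR quasi-likelihood, Benjamini-Hochberg adjusted p = 0.0142).

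Of the arms of miR-99a, only the major arm had enough counts for a test of its level. miR-99a-5p was at 508 ± 150 CPM in the lean, 431 ± 23.7 in the vehicle and 876 ± 259 in the colesevelam libraries (SD, n = 6 each). Every colesevelam library, at 582 CPM or more, lay above every vehicle library. The major arm rose 2.03-fold in colesevelam against vehicle (edgeR, adjusted p = 0.0120) and 1.71-fold against lean (adjusted p = 0.0249). miR-99a-3p averaged 72.4 ± 35.1, 88.0 ± 40.4 and 49.8 ± 30.05 CPM, with groups that overlapped, and its level was not tested. The ratio call was lost in edgeR without vehicle 6 (adjusted p = 0.0859), without colesevelam 3 (0.0710) or without colesevelam 5 (0.0539). The exact permutation test gave an adjusted p of 0.115. In that test a pair at the smallest possible p cannot pass unless other pairs tie with it. Whether miR-99a was at that p is not shown here, and its ratio overlapped between the 2 groups.

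**Figure D3:**
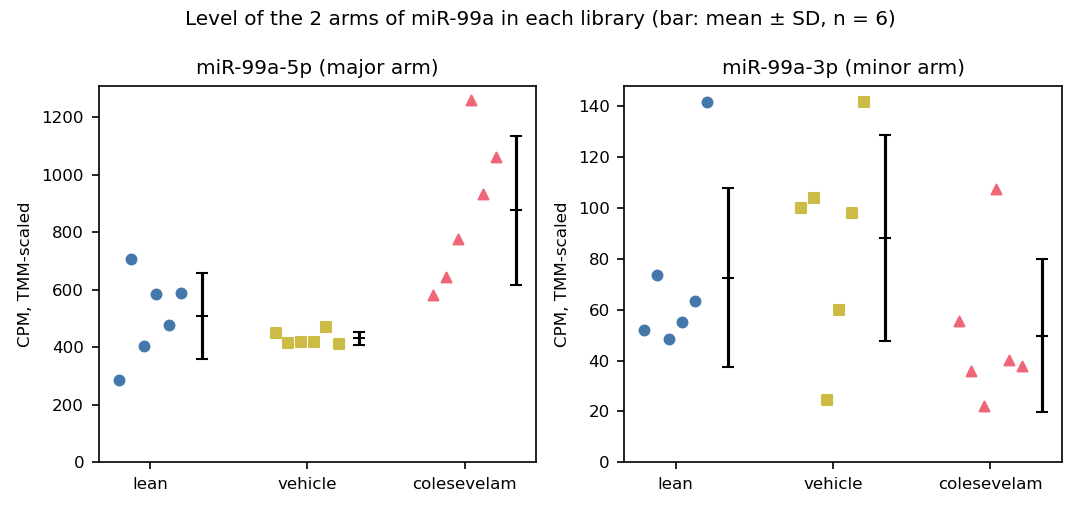
Level of miR-99a-5p (left) and miR-99a-3p (right) in CPM with TMM scaling; points are libraries, and bars are the mean ± SD of 6 libraries, on axes of different range. The major arm averages 876 CPM under colesevelam against 431 under vehicle, and the minor arm 49.8 against 88.0.

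Other members with small p-values in colesevelam against vehicle did not pass. miR-361, within the span of the X-linked gene Chm, ran from 33.3 to 120 per 100 (median 81.7) in the vehicle and from 9.09 to 66.7 (median 23.7) in the colesevelam libraries, a change of -1.44 ± 0.63 (edgeR, adjusted p = 0.292). miR-872 had 26 minor-arm counts in the vehicle and 11 in the colesevelam group, a change of -1.52 ± 0.71 (edgeR, adjusted p = 0.292). The ranges of both precursors overlapped between the groups.

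In colesevelam against lean, 3 of the 43 members had a lower ratio, let-7b, miR-340 and miR-99a, and none a higher one. Of the 53 pairs 11.3% passed, 9.43% as lower and 1.89% as higher, so the members' 3 calls are no larger a share than that of all pairs. Both let-7b and miR-340 reached the minimum of 20 counts only through the lean libraries, where their minor arms were high. The number of lower calls against lean is therefore not independent of how members were chosen. At an unadjusted p below 0.05 there were 4 of 43 members, all lower, and 9 of all 53 pairs. For let-7b and miR-340 the 2 groups did not overlap, which held for 7.55% of the 53 pairs. The median change was -0.28 over the members and -0.29 over all pairs. This comparison and the vehicle comparison with lean share the lean libraries, and both colesevelam comparisons share the colesevelam libraries.

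let-7b belongs to the let-7 family, which holds back growth genes and is itself held back by Lin28, and its 3p arm lies at 126301396 to 126301417 on the plus strand of chromosome 7. The ratio of let-7b-3p ran from 1.15 to 15.9 per 100 (median 4.09) in the lean, from 0 to 7.14 (median 1.96) in the vehicle and from 0 to 1.02 (median 0.654) in the colesevelam libraries. Every colesevelam library was below every lean one, and the vehicle libraries spread across both. The ratio was 8.3-fold lower in colesevelam than in lean, by -3.05 ± 0.76 on the log2 scale (edgeR quasi-likelihood, Benjamini-Hochberg adjusted p = 0.00350). The counts behind it were 111 against 2107 in the lean, 13 against 586 in the vehicle and 4 against 708 in the colesevelam group, where the pooled lean ratio would give 37.3. Outside the lean group let-7b-3p had 17 counts, so it reached the minimum of 20 only through the lean libraries, where it was high. let-7b-5p averaged 1560 ± 1005 CPM in the lean and 2047 ± 483 in the colesevelam libraries (SD, n = 6 each). The call held without any single library. It was lost in the exact permutation test (adjusted p = 0.0860). The counts of let-7b-5p were not whole in 14 libraries and were rounded, and reads of let-7 members that differ by a single base can be assigned to more than 1 of them.

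miR-98, the let-7 family member whose minor arm has the seed of let-7b-3p, lies within the span of Huwe1 on chromosome X. It had 32 minor-arm counts against 664 in the lean, 3 against 112 in the vehicle and 1 against 185 in the colesevelam group. The change in colesevelam against lean was -2.56 ± 1.04 (edgeR, adjusted p = 0.105), and the groups overlapped. miR-98-3p also reached the minimum of 20 only through the lean libraries, so its lower ratio lends nothing to that of let-7b. let-7d, the third let-7 member here, had ratios from 11.6 to 93.0 per 100 in the lean and from 32.0 to 63.8 in the colesevelam libraries, a change of -0.20 ± 0.43 (edgeR, adjusted p = 0.838). The vehicle libraries of let-7d ran from 25.0 to 127 per 100.

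miR-340 lies within the span of Rnf130 on chromosome 10, and the table lists it at 2 locations. miR-340-3p was counted in all 6 lean libraries, 38 counts against 1297 of the major arm, and its ratio ran from 0.602 to 4.14 per 100 (median 1.75). It had 0 counts against 316 of the major arm in the colesevelam group, where the pooled lean ratio would give 9.26. A floor of 3 counts over the colesevelam group lay 3.09-fold below the pooled lean ratio. This takes the pooled lean ratio as exact, so it is no lower bound on the change. The edgeR test of the fitted change gave an adjusted p of 0.0222, and the fitted change of such a gene is no bound either. Over all libraries miR-340-3p held 1.91% of its pair, and 1.07% without lean 2. Of the lean counts 24 came from lean 2, 3 of the lean libraries had 1 count each, and miR-340 reached the minimum of 20 only through the lean group. The call was lost in edgeR without colesevelam 2 (adjusted p = 0.0546) or colesevelam 3 (0.0567), and in DESeq2 (0.111) and limma (0.113). The exact permutation test gave an adjusted p of 0.115. miR-340-3p has a GC content 16.2 percentage points above its major arm.

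The ratio of miR-99a was 2.61-fold lower in colesevelam than in lean, by -1.39 ± 0.47 on the log2 scale (edgeR, adjusted p = 0.0454), with overlapping groups. This call lay at the threshold and was lost in 12 of 18 fits that left out 1 library. It was also lost where libraries of a group with the same label number were summed (adjusted p = 0.109).

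**Figure D4:**
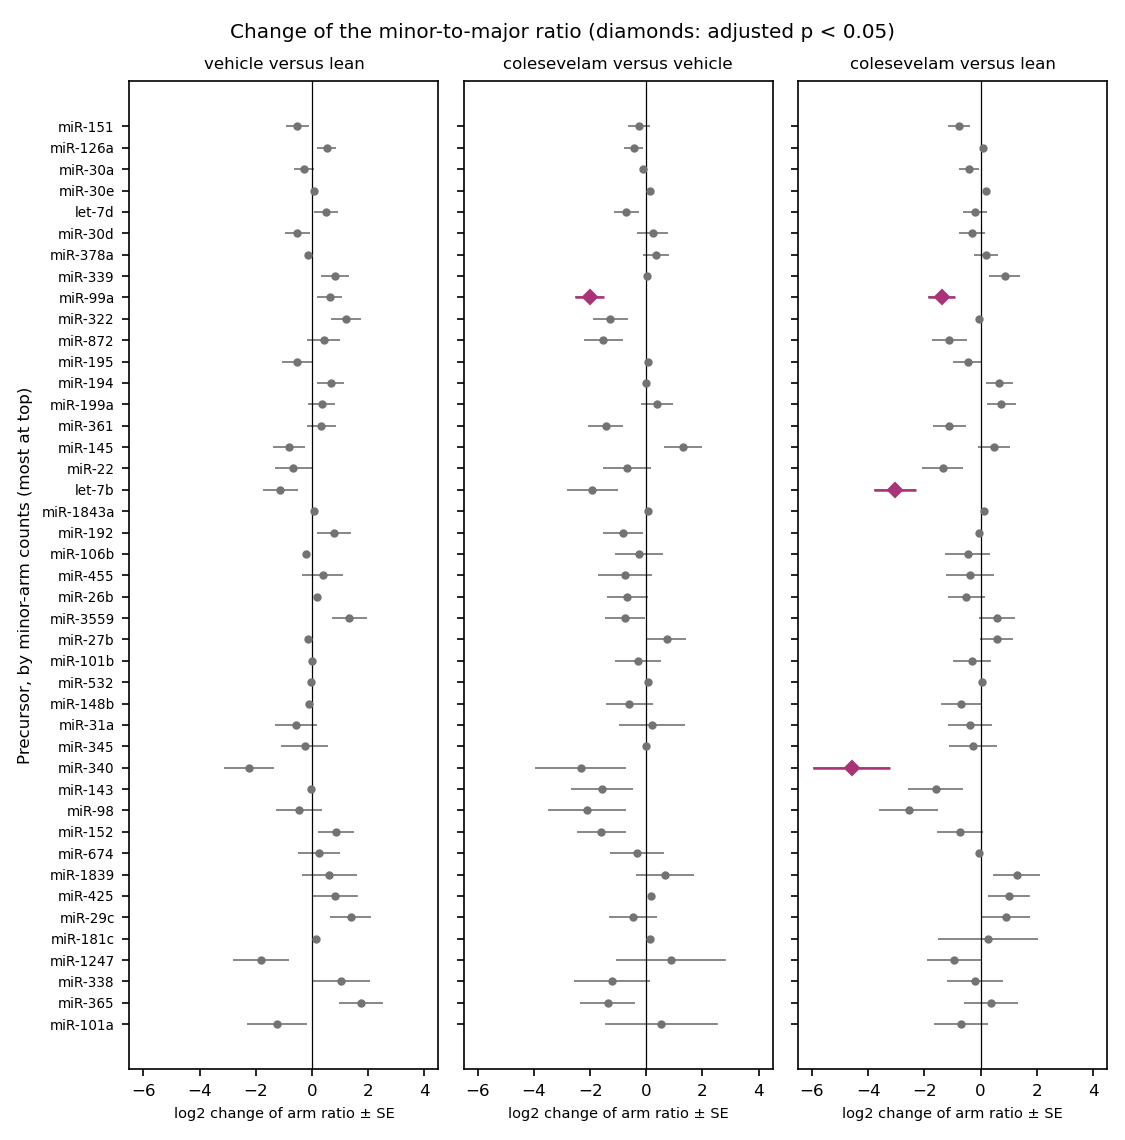
Log2 change of the minor-to-major ratio for the 43 precursors in the 3 comparisons, ordered by minor-arm counts with the most at the top; whiskers are ± 1 SE and are left out where the change is under 0.2 in size, and diamonds mark adjusted p below 0.05. Calls are miR-99a in colesevelam against vehicle, and let-7b, miR-340 and miR-99a in colesevelam against lean; all other members are grey.

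The levels of the minor arms themselves showed no call. Of the 43 minor arms 7 had enough counts for the level test over 112 rows: miR-151-5p, miR-126a-3p, miR-30a-3p, miR-30e-3p, let-7d-3p, miR-339-5p and miR-378a-5p. None of the 7 passed in vehicle against lean (6.25% of all rows did), in colesevelam against vehicle (10.7%) or in colesevelam against lean (21.4%). At an unadjusted p below 0.05 the edgeR counts were 0, 1 and 1 of the 7, against 21, 24 and 44 of the 112 rows, and DESeq2 also called 0 in each comparison. let-7d-3p had the largest change against vehicle, at 753 ± 492 CPM in the lean, 827.5 ± 373 in the vehicle and 415 ± 144.1 in the colesevelam libraries (SD, n = 6 each), -1.01 ± 0.46 on the log2 scale (edgeR, adjusted p = 0.186). Of their 36 major arms in the test, 1 passed as higher in vehicle against lean, where 3.57% of all rows were higher and 2.68% lower. In colesevelam against vehicle 1 was higher and 1 lower, against 7.14% and 3.57% of all rows. In colesevelam against lean 2 were higher and 2 lower, against 11.6% and 9.82%. Besides those named above these were miR-181c-5p, lower by -0.87 ± 0.29 (edgeR, adjusted p = 0.0342), and miR-101a-3p, lower by -0.85 ± 0.29 (edgeR, adjusted p = 0.0389), both against lean.

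Summed over all members, the minor arms took a similar share of their pairs in each group. The share was 1.39% ± 0.268 in the lean, 1.37% ± 0.296 in the vehicle and 1.15% ± 0.173 in the colesevelam libraries (SD, n = 6 each), with ranges of 1.03% to 1.73%, 0.932% to 1.69% and 0.896% to 1.37% that overlapped. The few abundant members set this sum. Taking instead the median share over the members in each library gave 4.83%, 5.26% and 1.93%, and these depend on members at 0 in the shallower libraries.

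How many minor arms were seen followed depth. A library had counts for 37 to 43 of them in the lean, 28 to 39 in the vehicle and 25 to 39 in the colesevelam group. At a common depth of 32942 counts the expected numbers were 24.8 to 30.4 (mean 27.7), 26.1 to 31.5 (mean 28.4) and 23.3 to 26.0 (mean 24.5). The order of the lean and the vehicle group was lost, and the colesevelam group lay lowest at both. All rows of the table showed the same order at that depth, with means of 191.2, 192.1 and 179.2 rows.

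**Figure D5:**
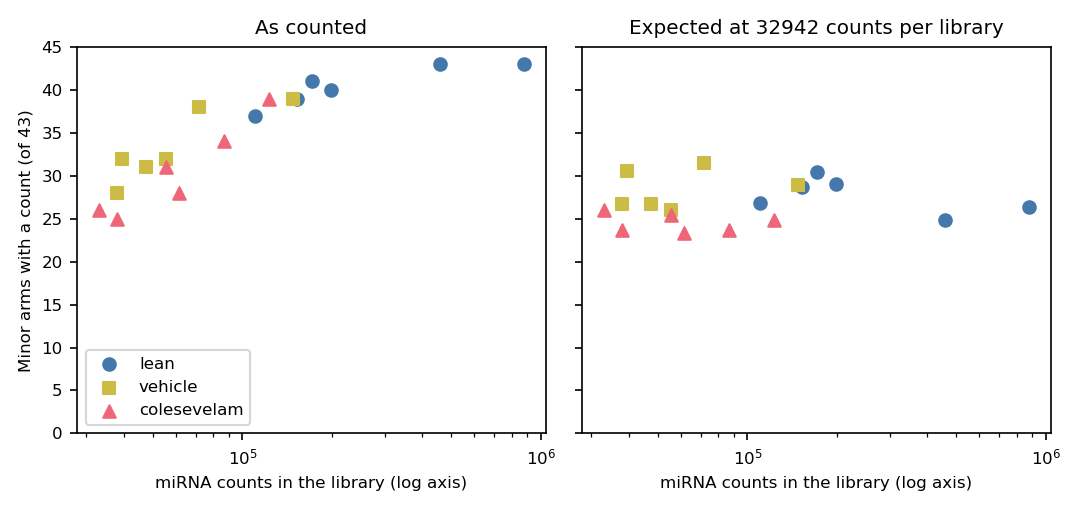
Number of the 43 minor arms with a count in each library as counted (left) and expected at a common depth of 32942 counts (right), against the library's miRNA counts (log axis). As counted, lean libraries reach 37 to 43; at common depth the groups run from 24.8 to 30.4 (lean), 26.1 to 31.5 (vehicle) and 23.3 to 26.0 (colesevelam).

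The ratios varied more between lean libraries than counting error gives. Over the 22 members with 100 counts or more, the median chi-square per degree of freedom was 7.42 in the lean, 1.61 in the vehicle and 1.58 in the colesevelam group, and this measure grows with depth where the relative spread is the same. In each library the deviation of a member's ratio was set against the GC difference of its arms. Pearson's r over the 22 members ran from -0.704 in vehicle 5 to 0.555 in lean 5, above 0 in 9 libraries and below 0 in 9, and members of a library share its preparation and depth. Over the same members r was 0.41 for the change in vehicle against lean, -0.22 in colesevelam against vehicle and 0.08 in colesevelam against lean. The arms of miR-99a have equal GC content. The part of GC content in the calls of let-7b and miR-340 was not tested beyond a limma fit with its slope removed. In that fit let-7b passed and miR-340 did not (-1.79, adjusted p = 0.0856). miR-340 did not pass in limma without the removal either (-1.16, adjusted p = 0.113), so its lost call does not come from removing the slope.

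The 17 members outside the rule for naming, miR-98 and miR-181c among them, had 1106 minor-arm counts in all, from 25 to 168 each, and ratios from 0.256 to 24.3 per 100 with a median of 4.42. The rule names every member that passed the arm ratio test in any of the 3 comparisons, so by that rule none of these 17 passed.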

How the data were processed

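Members, gene lists and tests were chosen with earlier results of these data known. Per the labels' protocols, flash-frozen liver gave total RNA (Norgen kit), and libraries were built with an Illumina TruSeq RNA kit. The table the authors deposited holds estimated counts of mature miRNAs, unscaled, for 401 rows in 18 library columns. Of these 7218 values 297 were not whole, and all values were rounded for the count tests. The submitters' processing notes name Bowtie 1.1.2 and DESeq2 1.18.1. Not given in the sources used here: the genome build, the annotation, the alignment settings and the counter. The authors' deposited means of scaled counts were used only to recover their size factors for an alternative scaling. Their deposited log2 fold changes and p-values were not used.

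Arm ratios were tested in edgeR 4.0.16 (quasi-likelihood, R 4.3.3) with a coefficient per library and an arm-by-group term over 53 pairs. Levels were tested in edgeR with TMM factors (0.814 to 1.19) over the 112 rows kept by filterByExpr (minimum count 10, minimum total 15), on all 18 libraries. P-values were adjusted by Benjamini-Hochberg over all features tested, with a threshold of 0.05. SE is the size of the log2 change divided by the square root of F, and it is unreliable for changes near 0. The common biological coefficient of variation of the arm ratios was 31.2%. CPM are TMM-scaled. Intervals are exact Clopper-Pearson at 95% and, like the floor of 3 counts, cover counting error only. Detection at 32942 counts, the total of the smallest library, was computed exactly from the hypergeometric distribution. Hairpins were folded with RNAfold 2.7.2, counting 3 bonds for GC, 2 for AU and 1 for GU over the first 4 bases.

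The members named are those past a threshold, the 10 with the most minor-arm counts, the 5 highest and 5 lowest ratios, the 3 on each side of the minimum, 12 precursors listed by name where they were members, and the 3 smallest p-values per comparison. Others named for a shared seed were chosen after their values were seen. Alternatives were limma 3.58.1, DESeq2 1.42.0, exact permutation over 924 splits (two-sided, smallest p 0.00216), other filters and scalings, and each library left out. Adjusted over the 53 pairs, that smallest p stays above 0.05 unless other pairs tie with it. The fits were checked on simulated data. For the arm ratios these were drawn with a smaller spread than the data showed, so that check does not give the rate of false calls here.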

Additional observations from a re-analysis of the deposited data

Results flagged for a closer look

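Within a group, 6 of 84 sets of 6 library values (the ratios of 26 named members, the summed share and the expected number of minor arms, in 3 groups) had a highest or lowest library far from the others (gap over range above 0.625 on the log2 ratio); chance gives about 1 in 20. Lean 6 accounted for 3 of them: it was lowest for miR-30a, at 1.83 per 100 against 3.31 to 4.14 in the other lean libraries, lowest for miR-30e, at 5.71 against 10.4 to 13.7, and highest for miR-22, at 0.243 against 0.0326 to 0.0628. In vehicle 2 the ratio of let-7b was the highest of its group at 7.14 per 100, from 4 minor-arm counts, against 0 to 2.27. In vehicle 1 that of miR-143 was the highest at 0.297 per 100, also from 4 counts, against 0 to 0.0324. The colesevelam libraries of miR-340 all had 0 minor-arm counts, so colesevelam 1 stood apart, with a ratio of 0 like the others, only through its major-arm count and the pseudocount of 0.5.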

How the results depend on the processing

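In vehicle against lean, 0 members were called by 12 of 13 alternatives to the arm ratio test, and 9 by limma with a pseudocount of 2. Leaving out single libraries gave 0 to 1, with 1 without vehicle 5. In colesevelam against vehicle the 1 call became 0 with no filter on pairs (miR-99a, edgeR, adjusted p = 0.0670) and by exact permutation. It was 0 to 1 with libraries left out, with 0 without vehicle 6, colesevelam 3 or colesevelam 5. The filterByExpr fit called 0 in both colesevelam comparisons, but tested only 7 members. miR-99a, let-7b and miR-340 were not among these, so that fit could not keep their calls. In colesevelam against lean the 3 calls became 0 by exact permutation, 1 by limma and 1 by DESeq2. They became 1 by limma with the GC slope removed (an alternative added after seeing the data) and 10 by limma with a pseudocount of 2. Libraries left out gave 1 to 4, with 1 without colesevelam 2 or colesevelam 3. The causes were not tested. miR-340 in colesevelam against lean turned to 0.17 by limma with a pseudocount of 2. Leaving out libraries under 40000 counts (added after seeing the data) cost miR-340 its call (adjusted p = 0.122). miR-99a in colesevelam against lean lost its call in 9 of 12 alternatives.

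For levels, the size factors of the authors called 7 of 7 minor arms as lower in vehicle against lean and 7 of 7 in colesevelam against lean. These factors move the median of all rows to -2.38 and -2.76 on the log2 scale, and to -0.36 in colesevelam against vehicle. They turned let-7d-3p (-1.91), miR-339-5p (-1.57) and miR-378a-5p (-1.65) in vehicle against lean, and miR-378a-5p (-1.59) in colesevelam against lean. Relative to the median of all rows the 7 arms lay between -0.34 and 0.81, and between -0.49 and 1.17. In colesevelam against vehicle only the 2 groups compared gave 1 call (let-7d-3p). In colesevelam against lean no filter gave 2 (let-7b-3p, miR-340-3p), 50 CPM in at least 6 libraries gave 1 (let-7b-3p), and libraries left out gave 0 to 1. The median over members gave shares of 4.83%, 5.26% and 1.93%.

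Replicate numbers recur in the 3 groups, but same-numbered libraries did not deviate together: the correlations ran from -0.59 to 0.56 for levels and from -0.44 to 0.35 for ratios. With the replicate number as a block the arm ratio calls were 0, 1 and 2 and the level calls 0, 0 and 0. Some libraries of a group share a label number, and summing those left the counts of calls within 1.5 times but cost miR-99a its call in colesevelam against lean (adjusted p = 0.109). Depth limits the shallow groups: with 32942 to 147318 counts, ratios below 1 per 100 rest on few or no minor-arm counts.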
